A study of Mus musculus with 32 samples.

Results

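The genes described here are 40 cell cycle and proliferation genes, chosen by symbol for their known roles in S phase and mitosis, of the 32544 genes in a kidney cortex count table. They comprise 3 cyclins of the entry into and passage through S phase, 6 subunits of the MCM helicase, 4 genes of DNA precursor synthesis and the replication clamp, the chromosome proteins *Mki67* and *Top2a*, 23 genes of mitosis, and the inhibitors *Cdkn1a* and *Cdkn2a*.

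The counts come from whole-tissue RNA of the kidney cortex, taken at 25 weeks of age from 32 C57BL/6J mice that carry the tm1Dec allele of *Col4a3*. Alport mice were *Col4a3* −/− and lack a chain of the glomerular basement membrane collagen, while the control mice were *Col4a3* +/− and thus carry 1 copy of the same allele. Mice of both genotypes ate a purified diet from 10 weeks of age, without addition (vehicle) or with nicotinamide riboside (NR), a precursor of NAD+, at 0.5% w/w. Each of the 8 groups formed by sex, genotype and diet holds 4 mice. Each library is 1 mouse, with a total of 16621944 to 27778797 counts and a median of 22071395. Levels are given as CPM, counts scaled to the size of each library with TMM factors over the 32 mice, and they are not divided by gene length, so that the most abundant gene of a list is the one with the most counts and need not be the one with the most molecules.

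*Col4a3*, the targeted gene, was examined first. In males its level was 200.1, 197, 180.3 and 150.5 CPM in vehicle-treated controls, 59.0, 93.7, 74.9 and 160.3 in NR-treated controls, 56.7, 66.7, 54.6 and 83.7 in vehicle-treated Alport mice and 67.7, 58.5, 55.9 and 62.4 in NR-treated Alport mice. In females it was 161, 140.4, 139.7 and 163 CPM in vehicle-treated controls, 113, 105, 123 and 122 in NR-treated controls, 57.6, 79.3, 59.8 and 60.2 in vehicle-treated Alport mice and 49.0, 51.2, 57.2 and 58.9 in NR-treated Alport mice. The mRNA of the targeted gene remained in Alport mice, every female control mouse lay above every female Alport mouse, and in males the vehicle-treated controls lay above every Alport mouse while the NR-treated controls overlapped them. Markers of the proximal tubule, the main cell type of the cortex, summed to 20433 ± 1181 CPM (SD, n = 4) in vehicle-treated male controls and 13168 ± 1042 CPM in vehicle-treated female controls, with the phosphate transporter gene *Slc34a1* the most abundant of the 9. By Dixon's gap criterion within groups of 4, applied to the genes with values per mouse, 3 mice stood apart. They were NR-treated male control replicate 2 in *Mki67*, *Top2a*, *Ccnb2* and *Cdc20*, vehicle-treated female Alport replicate 2 in *Ccnd1*, and NR-treated male Alport replicate 3 in *Cdkn1a*. NR-treated male Alport replicate 1 did not meet the criterion in these genes and is named because the calls with NR change without it, and it had the highest sum of the mitosis members in its group, 152 CPM. NR-treated male Alport replicate 3 also had the lowest proximal tubule sum of the 32 mice, 3259.7 CPM, as well as the lowest sum of the erythroid markers, 35.3 CPM.

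Cells that enter the cell cycle load MCM helicases onto DNA, raise the supply of deoxynucleotides and copy the genome in S phase. In mitosis, cyclin-dependent kinase 1 and the Aurora and Polo kinases drive chromosome condensation, spindle assembly and chromosome separation, and most mitotic genes are transcribed mainly in late S phase and G2. Few cells of the healthy adult kidney divide, whereas injury is known to bring tubule cells, interstitial cells and macrophages into the cycle, and the inhibitors p21 and p16 hold damaged or senescent cells out of it.

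In vehicle-treated mice the cell cycle genes were higher in Alport than in control cortex of both sexes. In males 36 of the 39 members tested rose, beside 26.8% of all 15286 genes tested that were called higher (edgeR quasi-likelihood test, Benjamini-Hochberg adjusted p under 0.05). In females 37 of 39 rose, beside 24.0% of 15709 genes. DESeq2, which tested all 40 members, called 37 in males and 38 in females, *Cdkn2a* among them. limma-voom called 37 of 39 in each sex. No member fell, and the median log2 fold change (log2FC) of the 39 members was 1.43 in both sexes, with a range of −0.03 to 2.76 in males and −0.37 to 2.39 in females, while the median of all genes tested was −0.00 in each sex. The member left out is *Cdkn2a*, whose counts were below the low-count filter. In this bulk tissue, a change in the number of cells of a type and a change in RNA per cell cannot be told apart.

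Summed over the 23 mitosis members, the level in males was 45.0, 42.5, 54.8 and 54.4 CPM in vehicle-treated controls, 116, 127, 135 and 169.8 in vehicle-treated Alport mice and 152, 59.5, 50.3 and 65.6 in NR-treated Alport mice. In females the sum was 60.1, 48.0, 67.6 and 51.1 CPM in vehicle-treated controls, 179, 119, 184 and 126 in vehicle-treated Alport mice and 112, 155, 69.4 and 67.8 in NR-treated Alport mice. All 4 vehicle-treated Alport mice of each sex lay above all 4 vehicle-treated controls, and the NR-treated Alport mice spread from control levels, or close to them, up to those of vehicle-treated Alport mice. The group means were 49.2 ± 6.35, 137 ± 23.2 and 81.9 ± 47.2 CPM (SD, n = 4) in males, and 56.7 ± 8.87, 152 ± 34.0 and 101 ± 41.2 CPM in females.

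**Figure D1:**
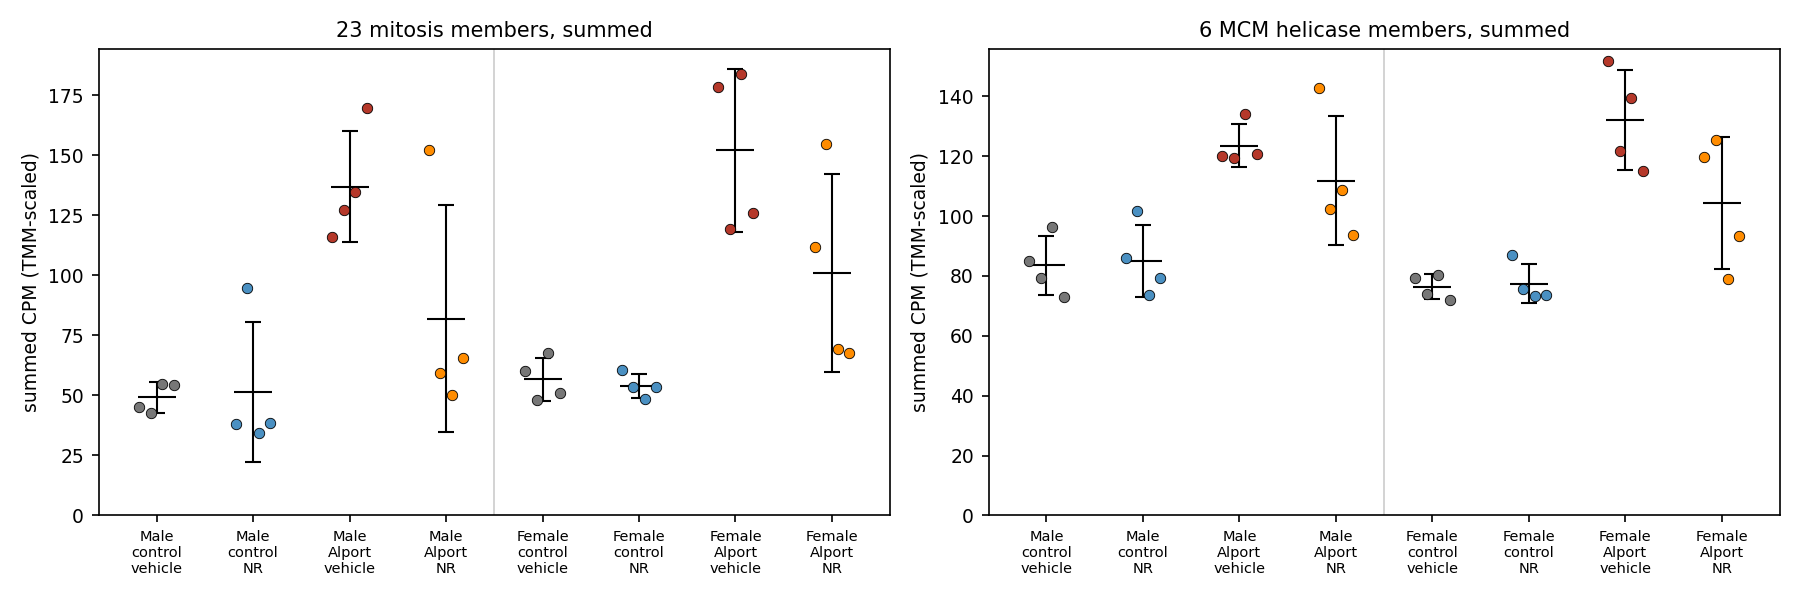
Summed CPM (TMM-scaled) of the 23 mitosis members (left) and the 6 MCM helicase members (right) in the 8 groups, where each point is 1 mouse, the long bar is the group mean and the error bar is 1 SD (n = 4). The vehicle-treated Alport means are 137 CPM in males and 152 CPM in females for the mitosis members, against 49.2 and 56.7 CPM in the vehicle-treated controls, and 1 NR-treated male Alport mouse lies at 152 CPM.

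The cyclins that act at the start of the cycle differed among themselves. *Ccnd1* encodes cyclin D1, the mitogen-induced partner of CDK4 and CDK6. In males *Ccnd1* was at 206, 185, 226 and 107 CPM in vehicle-treated controls, 190.0, 153, 191 and 145 in vehicle-treated Alport mice and 181, 192, 158 and 163 in NR-treated Alport mice. In females *Ccnd1* was at 175, 149, 285 and 151 CPM in vehicle-treated controls, 142, 156, 139 and 139 in vehicle-treated Alport mice and 158, 153, 127 and 163 in NR-treated Alport mice. The groups of either sex overlapped, and *Ccnd1* did not pass the test, with a log2FC of −0.01 ± 0.19 (SE) in males (edgeR adjusted p = 0.969) and −0.37 ± 0.19 in females (edgeR adjusted p = 0.138). The male value is near 0 and its sign turns with the choice of mice. *Ccne1*, the cyclin of the entry into S phase, rose by a log2FC of 1.23 ± 0.31 in males (edgeR adjusted p = 0.00605) and 2.19 ± 0.38 in females (edgeR adjusted p = 0.00103). *Ccna2*, the cyclin of S phase and G2, rose by 1.83 ± 0.23 in males (edgeR adjusted p = 5.62e-05) and 1.68 ± 0.27 in females (edgeR adjusted p = 0.000603).

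All 6 MCM genes, whose products form the ring helicase that opens replication origins, rose in both sexes. *Mcm7*, the subunit gene with the highest mean CPM over the 32 mice, was at 23.9, 25.7, 26.2 and 22.1 CPM in vehicle-treated controls, 31.2, 31.2, 33.0 and 30.3 in vehicle-treated Alport mice and 34.9, 26.1, 33.6 and 20.9 in NR-treated Alport mice in males. In females *Mcm7* was at 21.1, 20.6, 21.6 and 21.3 CPM in vehicle-treated controls, 41.7, 29.9, 36.4 and 26.5 in vehicle-treated Alport mice and 28.9, 32.2, 23.5 and 22.5 in NR-treated Alport mice. All vehicle-treated Alport mice lay above all vehicle-treated controls of their sex, while the NR-treated Alport mice of both sexes overlapped the vehicle-treated Alport mice, and 1 NR-treated male lay below the male controls. The log2FC of *Mcm7* in Alport against control mice on vehicle was 0.44 ± 0.08 in males (edgeR adjusted p = 0.000501) and 0.71 ± 0.12 in females (edgeR adjusted p = 0.000951). *Mcm3* rose by 1.42 in males and 1.40 in females, *Mcm5* by 1.14 and 1.54, *Mcm4* by 0.87 and 0.69, *Mcm2* by 0.51 and 0.49, and *Mcm6* by 0.42 and 0.81. The median over the 6 genes was 0.69 in males and 0.76 in females. Summed over the 6 genes, the level was 83.5 ± 9.91 CPM (SD, n = 4) in vehicle-treated male controls and 124 ± 7.05 CPM in vehicle-treated male Alport mice. The female sums were 76.4 ± 4.09 and 132 ± 16.7 CPM.

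The genes of DNA precursors and of the clamp that holds the polymerase on DNA moved less evenly. *Pcna*, the clamp gene, was at 48.8, 43.8, 55.3 and 45.4 CPM in vehicle-treated controls, 50.4, 49.6, 58.4 and 56.1 in vehicle-treated Alport mice and 60.4, 54.3, 70.0 and 52.3 in NR-treated Alport mice in males. In females *Pcna* was at 48.0, 48.4, 45.7 and 46.0 CPM in vehicle-treated controls, 53.6, 54.7, 51.4 and 49.8 in vehicle-treated Alport mice and 55.0, 60.6, 47.9 and 46.4 in NR-treated Alport mice. In males the vehicle-treated groups overlapped, and in females every vehicle-treated Alport mouse lay above every vehicle-treated control by a small margin. *Pcna* had a log2FC of 0.23 ± 0.09 in males, which missed the threshold (edgeR adjusted p = 0.0511), and rose by 0.19 ± 0.06 in females (edgeR adjusted p = 0.0148). The male *Pcna* value passed with limma-voom (0.0464) and with the replicate block (0.0323). Its adjusted p was 0.0166 without vehicle-treated control replicate 3 and 0.043 without vehicle-treated Alport replicate 2, and all the alternatives tried gave 0.0166 to 0.238. The female *Pcna* adjusted p ranged from 0.0123 to 0.235 over the alternatives, and the highest came from 1 fit of all 32 mice. Of the ribonucleotide reductase subunits, which make deoxynucleotides, the regulatory subunit *Rrm2* rose by 1.11 ± 0.27 in males and 1.47 ± 0.18 in females. The large subunit *Rrm1* rose by 0.54 ± 0.09 in males and 0.37 ± 0.11 in females, and the female call was lost without vehicle-treated Alport replicate 1. *Tyms*, the thymidylate synthase gene, did not pass the test, with −0.03 ± 0.10 in males (edgeR adjusted p = 0.801) and −0.25 ± 0.12 in females (edgeR adjusted p = 0.123). Without male vehicle-treated control replicate 1, 0 of 39 members had a negative value, so the sign of the male *Tyms* value turned. The female *Tyms* value passed the threshold only without vehicle-treated control replicate 1, where it was called lower in Alport mice.

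*Mki67* encodes Ki-67, a coat protein of mitotic chromosomes and the common histological marker of cycling cells. In males *Mki67* was at 3.07, 2.83, 6.59 and 5.28 CPM in vehicle-treated controls, 22.2, 23.0, 26.8 and 30.0 in vehicle-treated Alport mice and 29.6, 7.82, 2.48 and 9.96 in NR-treated Alport mice. In females *Mki67* was at 5.37, 3.50, 8.91 and 6.10 CPM in vehicle-treated controls, 33.4, 22.0, 39.0 and 26.3 in vehicle-treated Alport mice and 18.8, 26.1, 8.61 and 6.47 in NR-treated Alport mice. Every vehicle-treated Alport mouse was far above every vehicle-treated control, and among NR-treated Alport mice male replicate 1 and female replicate 2 lay within the vehicle-treated Alport range while male replicate 3 lay below the controls. The log2FC in Alport against control mice on vehicle was 2.60 ± 0.23 in males (edgeR adjusted p = 3.65e-06) and 2.37 ± 0.26 in females (edgeR adjusted p = 8.99e-05).

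*Top2a* encodes topoisomerase IIα, which untangles sister chromatids. In males *Top2a* was at 7.10, 5.95, 10.2 and 7.42 CPM in vehicle-treated controls, 16.7, 22.0, 22.3 and 24.2 in vehicle-treated Alport mice and 23.7, 8.51, 5.89 and 9.46 in NR-treated Alport mice. In females *Top2a* was at 6.40, 7.19, 10.7 and 8.20 CPM in vehicle-treated controls, 27.8, 18.3, 29.5 and 21.7 in vehicle-treated Alport mice and 17.4, 19.6, 9.89 and 12.6 in NR-treated Alport mice. The vehicle-treated Alport mice were again all above the controls, and the NR-treated Alport mice reached from the control range, or just below it, into the vehicle-treated Alport range. *Top2a* rose by a log2FC of 1.56 ± 0.17 in males (edgeR adjusted p = 1.45e-05) and 1.62 ± 0.19 in females (edgeR adjusted p = 0.000124).

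Each of the 6 mitotic cyclins and kinases rose in both sexes, and the median of their log2FC was 1.88 (males) and 1.60 (females). *Ccnb2*, a B-type cyclin that activates CDK1, was at 1.38, 1.28, 2.46 and 2.09 CPM in vehicle-treated controls, 5.28, 4.15, 6.00 and 9.28 in vehicle-treated Alport mice and 5.76, 2.49, 1.19 and 1.58 in NR-treated Alport mice in males. In females *Ccnb2* was at 2.58, 1.20, 3.57 and 1.91 CPM in vehicle-treated controls, 6.31, 4.38, 7.83 and 4.23 in vehicle-treated Alport mice and 4.39, 6.10, 2.64 and 2.23 in NR-treated Alport mice. The vehicle-treated groups did not overlap in either sex, and 1 NR-treated Alport mouse of each sex lay within the range of the vehicle-treated Alport mice, with a second female just inside it. *Ccnb2* rose by 1.85 ± 0.29 in males (edgeR adjusted p = 0.000243) and 1.33 ± 0.32 in females (edgeR adjusted p = 0.00594). *Cdk1*, the kinase itself, rose by 2.24 ± 0.34 in males and 2.39 ± 0.19 in females, and its other B-type partner *Ccnb1* by 1.90 ± 0.29 and 1.84 ± 0.34. *Melk*, a kinase gene of dividing cells, had the highest value of the 39 members in males at 2.76 ± 0.42, and stood at 2.22 ± 0.37 in females. *Aurka*, the kinase of spindle poles, rose by 1.62 ± 0.27 and 1.07 ± 0.24, and *Plk1*, the Polo kinase of mitotic entry and exit, by 1.42 ± 0.28 and 1.37 ± 0.17.

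The 4 genes of the spindle checkpoint and of the anaphase-promoting complex all rose. *Cdc20*, the activator of that complex, was at 2.38, 2.70, 5.26 and 3.23 CPM in vehicle-treated controls, 7.67, 6.27, 8.40 and 14.1 in vehicle-treated Alport mice and 9.22, 2.26, 2.41 and 4.16 in NR-treated Alport mice in males. In females *Cdc20* was at 4.43, 2.75, 4.71 and 1.87 CPM in vehicle-treated controls, 14.0, 6.79, 11.0 and 8.72 in vehicle-treated Alport mice and 8.87, 11.5, 3.56 and 3.76 in NR-treated Alport mice. Vehicle-treated Alport mice and controls did not overlap, whereas NR-treated Alport mice of both sexes ranged from control levels, or just below them, to within the vehicle-treated Alport mice. *Cdc20* rose by 1.50 ± 0.29 in males (edgeR adjusted p = 0.00106) and 1.59 ± 0.30 in females (edgeR adjusted p = 0.00149). The checkpoint kinase gene *Bub1* rose by 2.16 ± 0.31 in males and 2.25 ± 0.29 in females. *Bub1b*, whose product BubR1 holds CDC20 inactive until chromosomes are attached, rose by 2.22 ± 0.22 and 2.02 ± 0.23. *Ube2c*, the ubiquitin-conjugating enzyme of the complex, rose by 1.86 ± 0.35 and 0.95 ± 0.25.

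The 3 genes of the chromosomal passenger complex, which corrects faulty attachments of chromosomes to the spindle, also rose. *Cdca8*, which encodes the subunit borealin, was at 3.50, 2.18, 2.80 and 3.04 CPM in vehicle-treated controls, 5.15, 5.70, 6.11 and 5.30 in vehicle-treated Alport mice and 5.99, 2.89, 2.89 and 4.66 in NR-treated Alport mice in males. In females *Cdca8* was at 3.78, 2.94, 2.47 and 2.82 CPM in vehicle-treated controls, 7.11, 6.00, 7.21 and 4.19 in vehicle-treated Alport mice and 6.56, 6.73, 2.78 and 3.12 in NR-treated Alport mice. The vehicle-treated groups were apart in both sexes, and the NR-treated Alport mice of either sex lay partly near or within the vehicle-treated Alport mice (2 of 4) and partly within the control range (2 of 4). *Cdca8* rose by 1.03 ± 0.18 in males (edgeR adjusted p = 0.00047) and 1.07 ± 0.20 in females (edgeR adjusted p = 0.00153). *Aurkb*, the kinase of the complex, rose by 1.95 ± 0.25 and 2.06 ± 0.32, and *Birc5*, which encodes survivin, by 1.29 ± 0.18 and 1.04 ± 0.17.

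At the centromere, *Cenpf* encodes a protein of the outer kinetochore. In males *Cenpf* was at 1.06, 1.58, 2.36 and 2.19 CPM in vehicle-treated controls, 6.05, 6.92, 5.92 and 10.5 in vehicle-treated Alport mice and 8.37, 1.56, 0.519 and 3.44 in NR-treated Alport mice. In females *Cenpf* was at 2.54, 1.96, 3.38 and 2.05 CPM in vehicle-treated controls, 9.13, 5.59, 10.1 and 6.93 in vehicle-treated Alport mice and 6.78, 7.40, 3.65 and 2.34 in NR-treated Alport mice. Vehicle-treated Alport mice lay above all vehicle-treated controls, and NR-treated male Alport replicate 3 was the lowest of all 32 mice. *Cenpf* rose by 2.10 ± 0.27 in males (edgeR adjusted p = 5.4e-05) and 1.71 ± 0.23 in females (edgeR adjusted p = 0.000267). *Cenpa*, the histone variant that marks centromeres, rose by 1.43 ± 0.20 in males and 1.13 ± 0.26 in females. *Cenpe*, a kinesin that moves chromosomes to the spindle equator, rose by 0.77 ± 0.24 and 1.65 ± 0.29.

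All 7 genes of the spindle and the midzone rose, and the median of their log2FC was 1.62 (males) and 1.43 (females). *Kif23*, a kinesin of the central spindle needed for cytokinesis, was at 3.34, 4.03, 2.31 and 4.23 CPM in vehicle-treated controls, 6.13, 9.89, 6.80 and 9.37 in vehicle-treated Alport mice and 9.22, 3.42, 7.56 and 4.53 in NR-treated Alport mice in males. In females *Kif23* was at 6.62, 5.80, 4.24 and 6.65 CPM in vehicle-treated controls, 12.2, 7.96, 12.4 and 9.64 in vehicle-treated Alport mice and 7.10, 10.1, 5.42 and 11.5 in NR-treated Alport mice. The vehicle-treated groups were apart, and NR-treated Alport mice overlapped the vehicle-treated Alport mice of their sex. *Kif23* rose by 1.28 ± 0.22 in males (edgeR adjusted p = 0.00046) and 0.90 ± 0.18 in females (edgeR adjusted p = 0.00226). *Racgap1*, its partner in the centralspindlin complex, rose by 1.82 ± 0.22 and 1.62 ± 0.18, and *Prc1*, which bundles midzone microtubules, by 1.20 ± 0.26 and 1.43 ± 0.23. *Kif11*, the motor that separates the spindle poles, rose by 1.62 ± 0.17 and 1.68 ± 0.20, and *Tpx2*, the activator of Aurora A, by 2.05 ± 0.25 and 1.84 ± 0.27. *Kif20a*, a kinesin of late mitosis, rose by 1.95 ± 0.21 and 1.23 ± 0.28, and *Nusap1*, a microtubule-binding protein of the spindle, by 0.77 ± 0.20 and 1.36 ± 0.21.

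Among the calls of Alport against control mice, a fit of all 32 mice left 33 in males, without *Mcm6*, *Cenpe* and *Nusap1*, and 35 in females, without *Pcna* and *Ube2c*. No called member changed its sign in any setting tried. The library kit does not mark strand and the counting strand is not given in the sources used here, so reads of overlapping genes cannot be told apart. In the GENCODE annotation the exons of *Kif20a* share 1271 bases with *Cdc23* on the opposite strand, those of *Ccnd1* 1100 bases with *LTO1*, those of *Prc1* 911 bases with *Rccd1*, and those of *Ube2c* 592 bases with *Tnnc2*. Shorter overlaps join *Ccna2* with *Exosc9*, *Mcm7* with *Ap4m1* and *Cops6*, *Nusap1* with *Oip5*, *Cdc20* with *Elovl1*, and *Cdca8*, *Plk1* and *Cdkn1a* with other genes. The opposite-strand genes of *Ccnd1*, *Cdca8*, *Plk1* and *Cdkn1a* have no line of that name in the count table. *Ccnb1*, *Ccnb2*, *Pcna* and *Tyms* have processed pseudogenes that could share reads with them. The values of these members are uncertain to that extent.

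**Figure D2:**
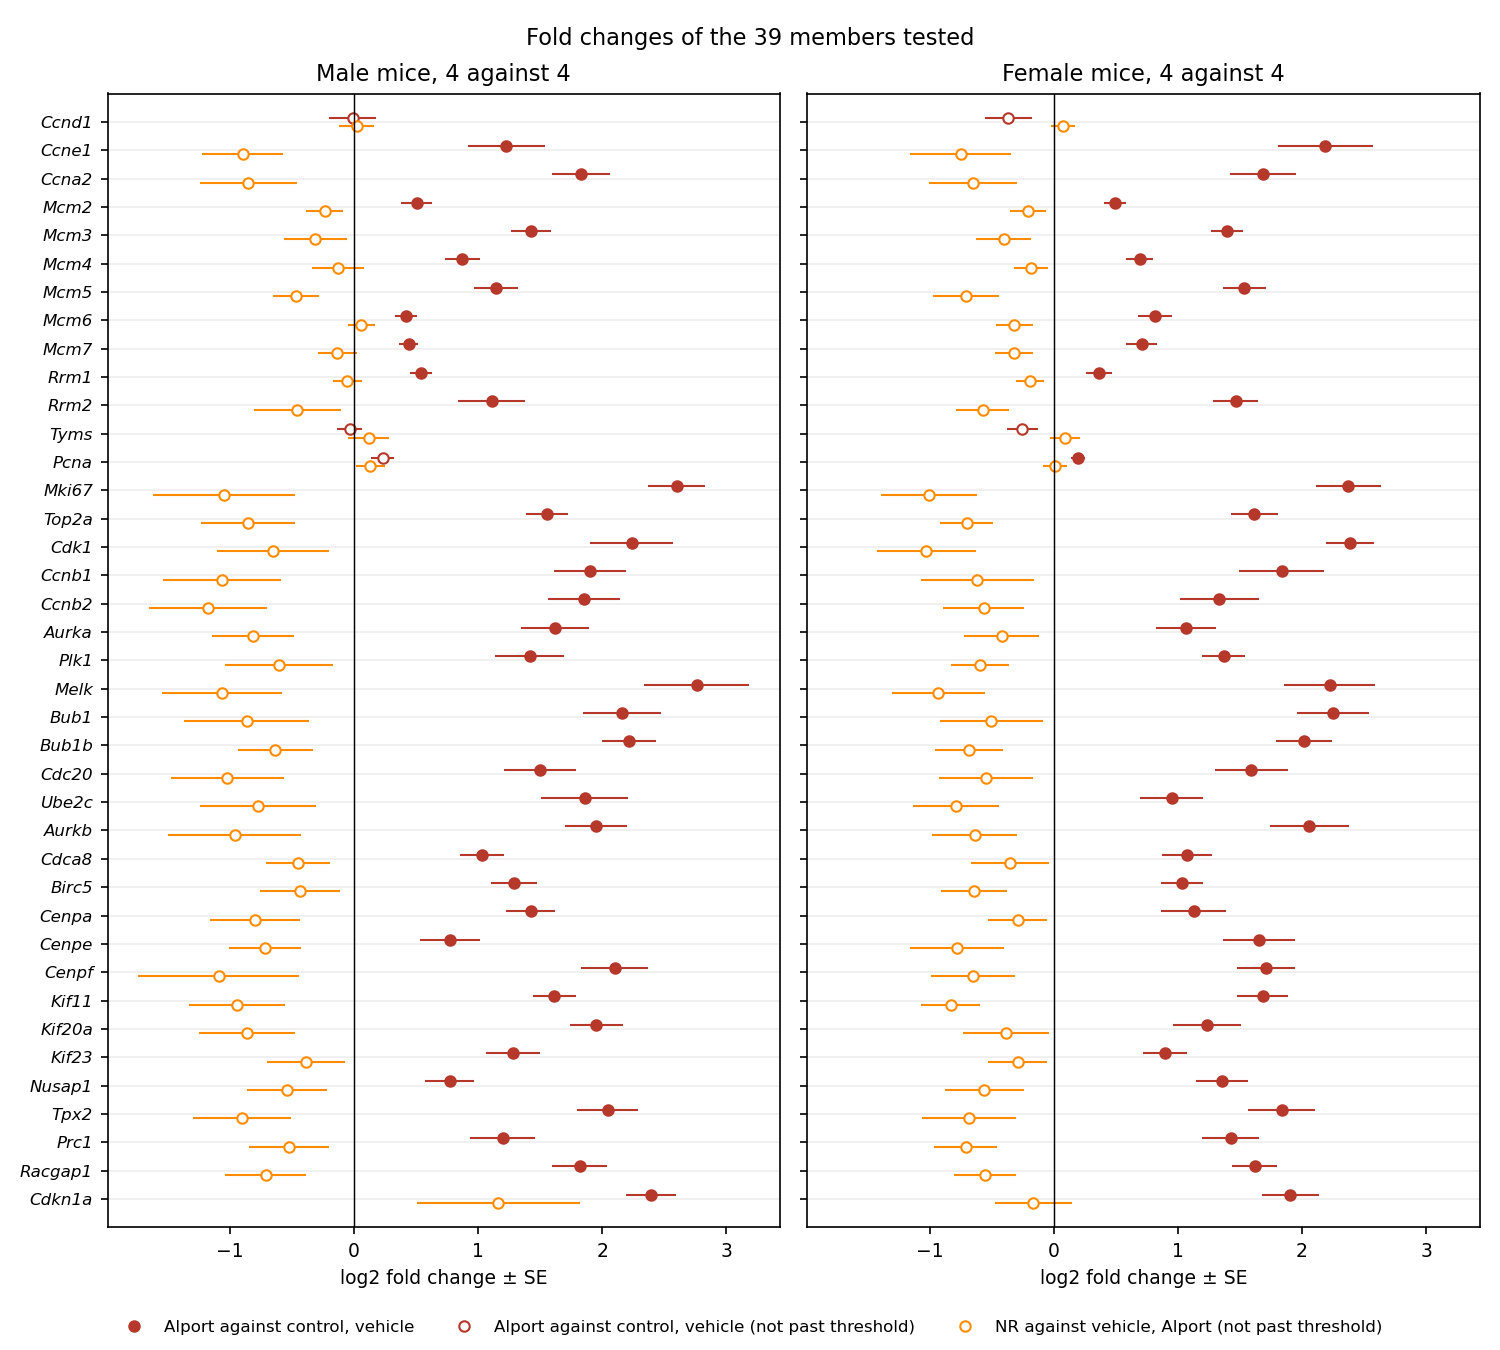
Log2 fold change with its SE for the 39 members tested, in males (left) and females (right), from edgeR fits of 4 against 4 mice, where filled points passed an adjusted p of 0.05 and open points did not. In Alport against control mice on vehicle (red), 36 members in males and 37 in females passed, and in NR-treated against vehicle-treated Alport mice (orange) 0 passed in either sex.

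*Cdkn1a* encodes p21, an inhibitor of cyclin-dependent kinases that p53 induces. In males *Cdkn1a* was at 2.91, 3.21, 4.47 and 4.19 CPM in vehicle-treated controls, 11.7, 5.67, 10.5 and 6.15 in NR-treated controls, 17.4, 22.2, 21.2 and 12.6 in vehicle-treated Alport mice and 24.2, 16.5, 113 and 11.3 in NR-treated Alport mice. In females *Cdkn1a* was at 8.04, 6.36, 6.75 and 6.42 CPM in vehicle-treated controls, 5.97, 7.04, 8.70 and 6.69 in NR-treated controls, 39.5, 19.5, 23.4 and 18.1 in vehicle-treated Alport mice and 16.7, 22.4, 14.5 and 35.1 in NR-treated Alport mice. Every Alport mouse on either diet lay above every vehicle-treated control of its sex, the male NR-treated controls lay above the male vehicle-treated controls, and NR-treated male Alport replicate 3 was far above all other mice. The proximal tubule markers summed to 4599, 12311, 3259.7 and 12962 CPM in the 4 NR-treated male Alport mice, lowest in the same replicate 3, and their part in the result was not tested. In Alport against control mice on vehicle, *Cdkn1a* rose by a log2FC of 2.39 ± 0.20 in males (edgeR adjusted p = 2.32e-06) and 1.91 ± 0.23 in females (edgeR adjusted p = 0.000141). The inhibitor thus rose together with the genes of DNA replication and mitosis.

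**Figure D3:**
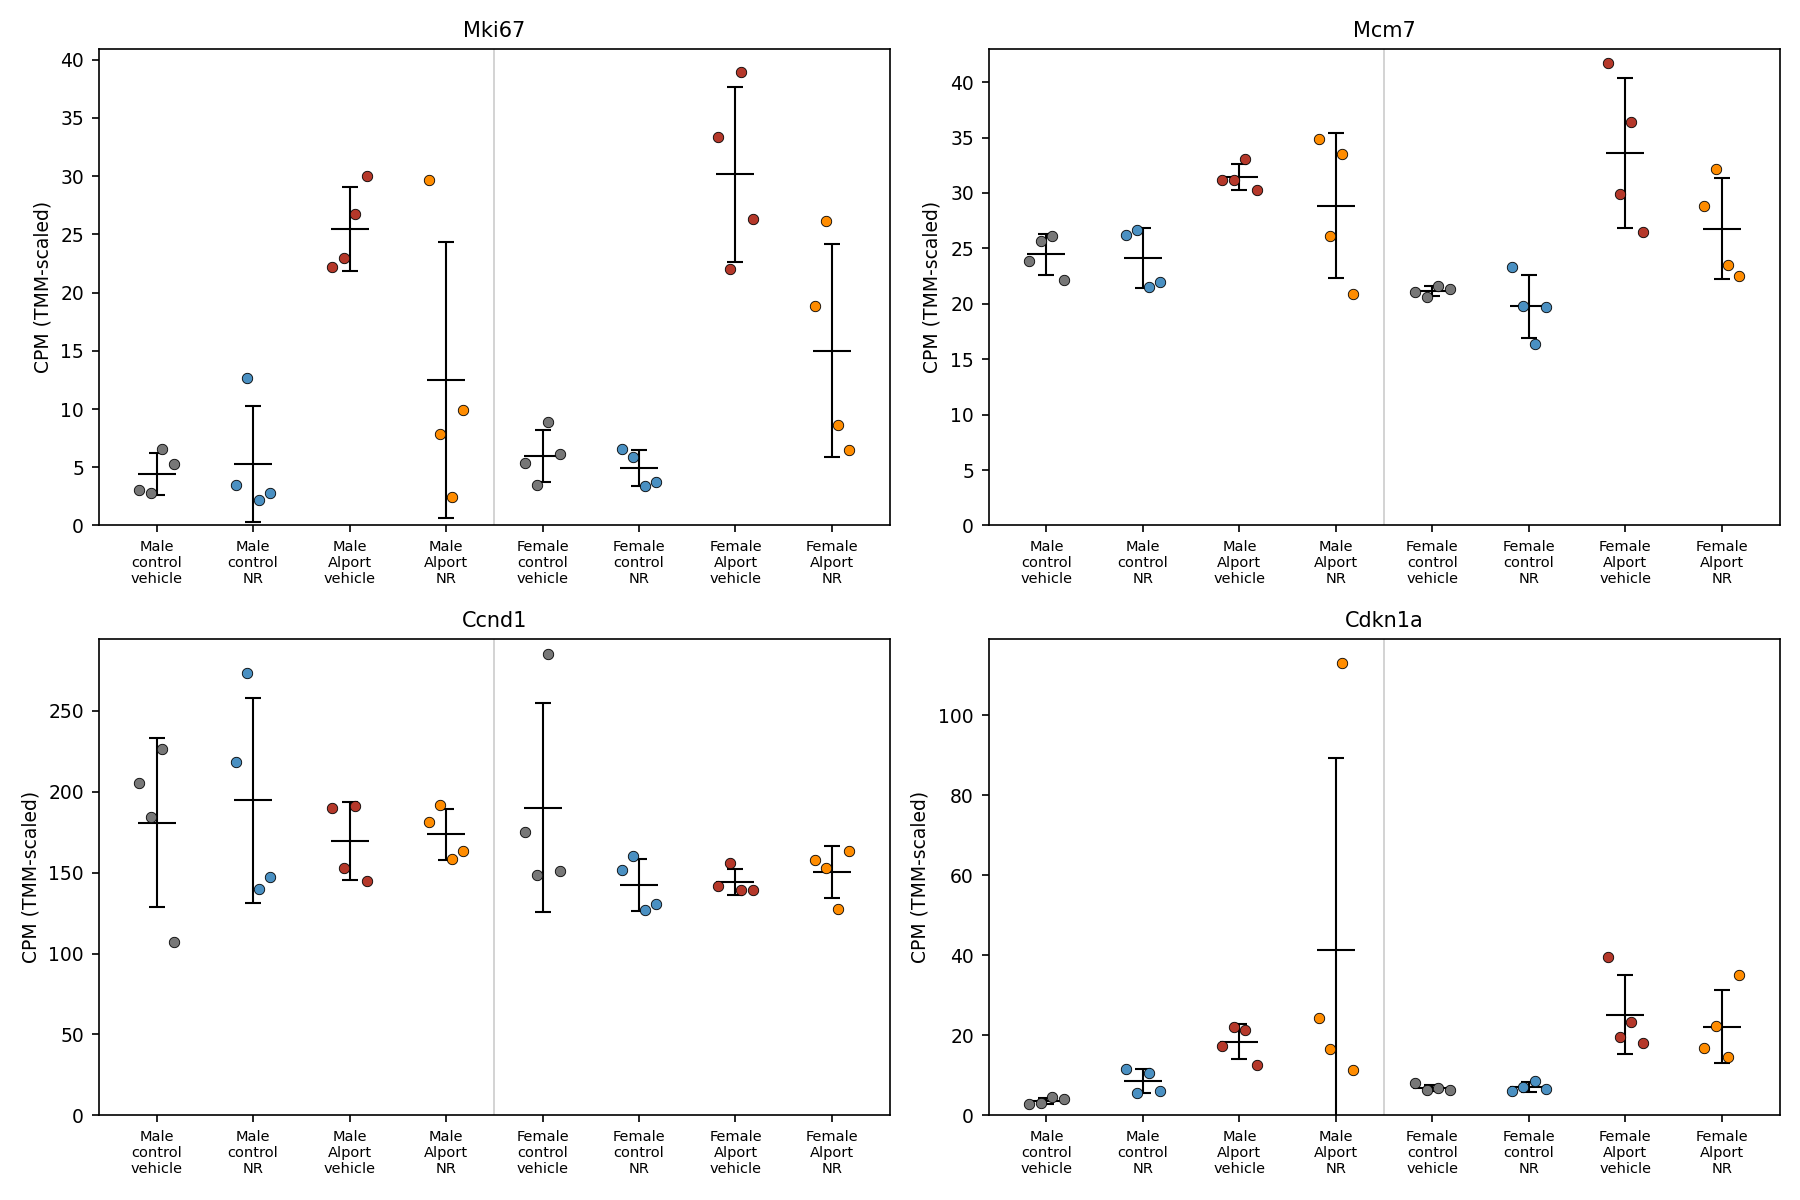
CPM (TMM-scaled) of *Mki67*, *Mcm7*, *Ccnd1* and *Cdkn1a* in the 8 groups, where each point is 1 mouse, the long bar is the group mean and the error bar is 1 SD (n = 4), drawn down to 0 only. *Mki67* and *Mcm7* are higher in vehicle-treated Alport mice than in vehicle-treated controls, *Ccnd1* overlaps, and 1 NR-treated male Alport mouse has 113 CPM of *Cdkn1a*.

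*Cdkn2a*, whose products are p16 and p19, was counted in few reads and was below the filter of every comparison. In males it had 0 counts in each of the 8 control mice, 7, 7, 12 and 5 in vehicle-treated Alport mice and 8, 0, 2 and 4 in NR-treated Alport mice. In females it had 3, 0, 0 and 0 counts in vehicle-treated controls, 0 in each NR-treated control, 16, 8, 4 and 6 in vehicle-treated Alport mice and 1, 3, 0 and 0 in NR-treated Alport mice. Each vehicle-treated Alport mouse had counts, and 1 of all 16 controls did. Against the vehicle-treated male controls, taken at a floor of 3 counts over the group, *Cdkn2a* was at least 8.79-fold higher in vehicle-treated male Alport mice and at least 4.22-fold higher in NR-treated ones, or at least 2.52-fold without NR-treated Alport replicate 1. Against the 3 counts of the vehicle-treated female controls the ratio in vehicle-treated Alport mice was 10, with a 95% interval of 3.16 to 51.1, and in NR-treated Alport mice, with 4 counts, it was 1.39 (0.235 to 9.49). Without NR-treated female Alport replicate 2, which holds 3 of these 4 counts, that ratio was 0.457. The ratio of NR-treated to vehicle-treated Alport mice was 0.480 (0.236 to 0.929) in males and 0.138 (0.0357 to 0.388) in females. It was 0.286 in males without NR-treated replicate 1 and 0.0455 in females without NR-treated replicate 2, and leaving out mice for *Cdkn2a* was chosen after seeing the data. These intervals and the floor cover counting error only, not the spread between mice. DESeq2, and edgeR without the low-count filter, called *Cdkn2a* higher in vehicle-treated Alport mice of both sexes.

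Whether the Alport effect differed between the sexes was tested as an interaction in the 16 vehicle-treated mice. With edgeR 0 of 39 members passed, beside 0.285% of all 16152 genes tested at an adjusted p under 0.05 and a difference of at least 2-fold. DESeq2 and limma-voom called 0 as well. At an unadjusted p under 0.05 there was 1 member, *Cenpe*, with a female minus male difference of 0.84 ± 0.40 on the log2 scale, beside 12% of all genes. The smallest adjusted p of the members was 0.415. In vehicle-treated controls 7 of 39 members differed between females and males, beside 31.7% of 14990 genes. Higher in females were *Ube2c* by a log2FC of 1.12, *Cdkn1a* by 0.92, *Kif23* by 0.76, *Kif20a* by 0.75, *Aurka* by 0.67 and *Rrm1* by 0.39, and *Nusap1* fell by 0.88 against males. *Cdkn1a* had the smallest p (edgeR adjusted p = 0.00158). The number of calls was 4 without male control replicate 1, without male control replicate 2 or without female control replicate 4, and 1 in a fit of all 32 mice. Among cell type markers, 6 of 6 podocyte, 6 of 8 fibroblast and 5 of 9 injured tubule markers were higher in females. So were 4 of 10 macrophage, 4 of 8 endothelial and 2 of 8 thick limb and distal tubule markers. Lower in females were 5 of 5 erythroid, 4 of 9 proximal tubule and 1 of 9 injured tubule markers. The part of these cell types in the result was not tested.

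Other genes of the cycle, from lists that hold none of the 40 members, were compared in the same fits. Of 45 other mitosis genes tested, 38 rose and 0 fell in male Alport mice on vehicle, with a median log2FC of 1.57, and 39 rose and 1 fell in females, with a median of 1.50. The largest values among those called in both sexes were *Troap* at 2.86 in males and 2.29 in females, *Ckap2l* at 2.58 and 1.97, and *Kif18b* at 2.45 and 2.38, all genes of the spindle. Of 36 other S phase genes, 23 rose and 2 fell in males, with a median of 0.62, and 22 rose and 1 fell in females, with a median of 0.59. They were led by *Uhrf1*, a factor of DNA methylation upkeep, at 2.24 and 2.13, the repair gene *Brca1* at 1.89 and 2.20, and the checkpoint mediator *Clspn* at 2.16 and 1.77.

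Among regulators of the cycle some genes fell. Of 18 E2F, RB and DREAM regulators, 7 rose and 4 fell in males and 8 rose and 3 fell in females. Of all genes tested 26.8% rose and 24.2% fell in males, and 24.0% and 21.8% in females. The repressor *E2f8* rose by a log2FC of 2.40 in males and 2.18 in females, *Foxm1*, an activator of mitotic genes, by 2.22 and 1.98, and the activator *E2f2* by 0.54 and 1.18. Of the other cyclins, CDKs and their partners, 7 of 13 tested rose and 2 fell in males, and 9 of 14 rose and 1 fell in females. Cyclin F (*Ccnf*) rose by 2.79 and 2.0, the CDK1 inhibitory kinase gene *Pkmyt1* by 2.21 and 2.22, and the CDK subunit gene *Cks1b* by 1.23 and 1.43. Of the 6 other CDK inhibitors 4 rose in each sex, among them *Cdkn2b*, which encodes p15, by 3.15 and 2.21, the phosphatase gene *Cdkn3* by 1.98 and 1.70, and *Cdkn1c*, which encodes p57 and is expressed in podocytes, by 1.44 and 0.85. Of 20 genes of p53 and its targets other than *Cdkn1a*, 13 rose and 1 fell in males and 14 rose and 1 fell in females, with medians of 0.62 and 0.61. They include *Gadd45b* at 1.91 and 1.21, *Phlda3* at 1.83 and 1.42, and *Eda2r* at 1.75 and 1.63.

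Markers of several cell types moved in the same comparison. All 10 macrophage markers rose in both sexes, and their summed level was 90.5 ± 10.8 CPM (SD, n = 4) in vehicle-treated male controls and 689 ± 86.2 CPM in male Alport mice, and 123 ± 34.9 and 658 ± 153 CPM in females, with *Lyz2* the most abundant in Alport mice. All 8 fibroblast markers rose, from a sum of 127 to 1220 CPM in males and from 195 to 1050 CPM in females, with *Col1a2* the most abundant in Alport mice. All 9 markers of injured tubules rose, from 1003 to 7364 CPM in males and from 2218 to 10632 CPM in females, with *Spp1* the most abundant. The proximal tubule markers fell in 9 of 9 cases in males and in 8 of 9 in females, where *Slc7a13* rose, and their sums in Alport mice were 8704 and 6634 CPM.

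Of 8 T cell markers 8 rose in males and 7 in females, with sums of 6.00 and 21.5 CPM in male and 9.32 and 25.7 CPM in female controls and Alport mice, and *Lck* or *Cd4* the most abundant in Alport mice. Of the 5 B and plasma cell markers tested, 5 rose in males and 2 in females, with *Jchain* the most abundant and sums of 5.57 and 41.1 CPM in males and 8.36 and 50.5 CPM in females. By mouse, these sums were 95.2, 26.5, 19.9 and 22.7 CPM in vehicle-treated male Alport mice, far highest in replicate 1. Endothelial markers rose in 7 of 8 cases in males and 5 of 8 in females, and podocyte markers in 6 of 6 and 5 of 6. The summed endothelial level, led by *Kdr* or *Pecam1*, went from 333 to 464 CPM in males and from 396 to 462 CPM in females, and the podocyte level, led by *Podxl*, from 364 to 809 and from 539 to 818 CPM. All 5 erythroid markers tested fell in both sexes, with *Hbb-bs* the most abundant and sums of 1185 and 370 CPM in males and 516 and 239 CPM in females. Of the markers of the thick limb and distal tubule, led by *Umod*, 5 of 8 fell in both sexes, with sums of 5650 and 4562 CPM in males and 7251 and 5824 CPM in females. The 6 neutrophil markers summed to 3.84 CPM in male and 4.20 CPM in female Alport mice, most of it *Cxcr2*. With edgeR *Cxcr2* was the 1 marker tested, and it fell in males and did not pass in females. For males limma-voom called 0 neutrophil markers, and DESeq2 called 1 lower and 1 higher. *Ly6g* was at 0 counts in vehicle-treated female Alport mice and in the vehicle-treated controls of both sexes. The part of these cell types in the levels of the cell cycle genes was not tested.

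The effect of NR in Alport mice was examined next, in NR-treated against vehicle-treated mice of each sex. This comparison shares the vehicle-treated Alport mice with the one above, so the values of the 2 comparisons are not independent. In males edgeR called 0 of 39 members, beside 0% of all 15500 genes tested, and the smallest adjusted p of the members was 0.929. At an unadjusted p under 0.05 there were 8 members, beside 5.06% of all genes, and DESeq2 and limma-voom each called 0 members. The log2FC was negative in 34 of 39 members, beside 47.1% of all genes, with a median of −0.65. In females edgeR called 0 of 39, beside 0.477% of 15712 genes, with a smallest adjusted p of 0.153. At an unadjusted p under 0.05 there were 12 members, beside 16.7% of all genes, limma-voom called 0 members, and DESeq2 called 2, *Kif11* and *Top2a*, beside 706 of all 22860 genes. The log2FC was negative in 36 of 39 members, beside 49.9% of all genes, with a median of −0.56.

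By role, the median log2FC with NR was −0.18 in males and −0.32 in females for the MCM genes, and 0.03 and −0.09 for the DNA precursor and clamp genes. It was −0.85 and −0.65 for the G1/S cyclins, −0.95 and −0.85 for the chromosome proteins, and −0.94 and −0.61 for the mitotic cyclins and kinases. It was −0.82 and −0.61 for the genes of the checkpoint and the anaphase-promoting complex, −0.45 and −0.64 for the passenger complex, −0.80 and −0.65 for the kinetochore, and −0.71 and −0.56 for the spindle and midzone. *Mki67* had −1.04 ± 0.57 in males (edgeR adjusted p = 0.939) and −1.0 ± 0.38 in females (edgeR adjusted p = 0.243). *Top2a* had −0.85 ± 0.38 in males (edgeR adjusted p = 0.939) and −0.70 ± 0.22 in females (edgeR adjusted p = 0.179). The NR-treated mice of a group lay far apart. *Ccnd1*, which did not pass the test by genotype, had 0.02 ± 0.14 and 0.07 ± 0.10 with NR. *Cdkn1a* had 1.16 ± 0.66 in males and −0.16 ± 0.31 in females, and the male value was −0.09 without NR-treated Alport replicate 3 and the female value 0.13 without vehicle-treated Alport replicate 1.

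The male count changes with 1 mouse. Without NR-treated male Alport replicate 1, edgeR called 14 of 39 members lower with NR, beside 1.85% of all 15662 genes tested that were called lower, and the median log2FC was −1.10. These were *Mki67* (−1.94, edgeR adjusted p = 0.0459), *Ccnb2* (−1.84), *Aurkb* (−1.81), *Ccnb1* (−1.80), *Melk* (−1.79), *Cdc20* (−1.63), *Tpx2* (−1.46), *Ccna2* (−1.46), *Kif11* (−1.44), *Top2a* (−1.43, edgeR adjusted p = 0.0261), *Kif20a* (−1.43), *Cenpa* (−1.32), *Racgap1* (−1.20) and *Prc1* (−0.98). Over the alternatives tried, the adjusted p of *Mki67* was 0.0459 to 1 and that of *Top2a* 0.0261 to 1. With any other of the 8 mice left out, edgeR called 0 members. The macrophage markers summed to 1139, 341, 218 and 422 CPM in the 4 NR-treated male Alport mice, the injured tubule markers to 11688, 4395, 4927 and 3599 CPM, and the fibroblast markers to 1927, 405, 462 and 642 CPM. In all 3 sums replicate 1 was the highest, as in the sum of the mitosis members. In the 4 NR-treated female Alport mice the macrophage markers summed to 671, 489, 244 and 109 CPM, the injured tubule markers to 7675, 9442, 5643 and 3914 CPM, and the fibroblast markers to 1049, 992, 472 and 339 CPM, with female replicates 1 and 2 above replicates 3 and 4 in each. Between NR-treated and vehicle-treated Alport mice edgeR called 0 markers of these 3 lists in either sex. In males 0 had an unadjusted p under 0.05, and DESeq2 and limma-voom called 0. In females 4 of 10 macrophage, 5 of 9 injured tubule and 0 of 8 fibroblast markers had an unadjusted p under 0.05, beside 16.7% of all genes, limma-voom called 0, and DESeq2 called 2 injured tubule markers lower. Of the other marker lists edgeR called 1 gene in females, *Jchain*, with a log2FC of −2.70 (edgeR adjusted p = 0.0183), and 0 in males, where DESeq2 and limma-voom also called 0. In females DESeq2 called 4 erythroid, 3 endothelial and 1 thick limb or distal tubule marker higher, and 2 B or plasma cell markers and 1 T cell marker lower, while limma-voom called 0. An unadjusted edgeR p under 0.05 was found in 5 erythroid and 5 endothelial markers in females, and in 0 and 2 in males. The part of these cell types in the result was not tested.

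In the other lists of cell cycle genes edgeR called 0 genes with NR in Alport mice of either sex. Among the 45 other mitosis genes the male median was −0.69, with 44 negative, and the female median −0.57, with 42 negative. The 36 other S phase genes had medians of −0.19 and −0.26, and the 20 genes of p53 and its other targets medians of 0.04 and 0.03. At an unadjusted p under 0.05 there were 17 of the other mitosis genes in males and 14 in females, 2 and 10 of the other S phase genes, and 2 and 2 of the p53 genes, beside 5.06% of all genes in males and 16.7% in females. limma-voom called 0 in these 3 lists in either sex, and DESeq2 called 0 in males and, in females, 2 mitosis genes and 2 S phase genes lower.

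NR-treated Alport mice were also set against vehicle-treated controls, to see which members were still above the control level. These fits share the controls with the comparison of vehicle-treated mice. In males 6 of 39 members were called higher, a share near that of all genes, 14.4% of 15077. The log2FC was positive in 38 of 39 members, beside 51.6% of all genes, with a median of 0.73. Without NR-treated Alport replicate 1 the median was 0.32, with 6 members negative. The 6 called members were *Cdkn1a* at 3.54 ± 0.72 (edgeR adjusted p = 0.0107), *Bub1b* at 1.57, *Mcm3* at 1.10, *Mcm4* at 0.73, *Rrm1* at 0.47 and *Mcm6* at 0.46. Without NR-treated Alport replicate 3 the *Cdkn1a* value was 2.28. The count in males was 1 without vehicle-treated control replicate 1 or 2, 2 without control replicate 4 and 3 without NR-treated Alport replicate 1, while a fit of all 32 mice gave 15, DESeq2 9 and limma-voom 4. In either direction these called 6819 of all 16469 genes, 4535 of 22403 and 2940 of 15077, beside 3199 of 15077 in the main fit. In this male comparison the 32-mouse fit thus called more genes of any kind. The replicate block gave 3, without *Bub1b*, *Mcm6* and *Rrm1*. With limma-voom *Cdkn1a* (2.97) and *Mcm4* were not called, and the adjusted p of *Cdkn1a* over the alternatives was 6.35e-06 to 0.0531. In females the log2FC was positive in 37 of 39 members, beside 48% of all genes, with a median of 0.81, or 0.61 without NR-treated Alport replicate 2. Of the 39, 12 were called higher, beside 11.9% of 15381 genes. The values were 1.71 for *Bub1*, 1.70 ± 0.26 for *Cdkn1a* (edgeR adjusted p = 0.00175), 1.38 for *Aurkb*, 1.33 for *Mki67*, 1.30 for *Bub1b*, 1.25 for *Melk*, 1.02 for *Racgap1*, 0.95 for *Mcm3*, 0.88 for *Top2a*, 0.85 for *Rrm2*, 0.81 for *Kif11* and 0.47 for *Mcm4*. The count in females was 5 without vehicle-treated control replicate 1 or 2 or without NR-treated Alport replicate 1, 6 without control replicate 4 or NR-treated Alport replicate 2, and 28 without NR-treated Alport replicate 4. DESeq2 called 23 and limma-voom 7, beside 4235 of all 22536 and 3349 of all 15381 genes in either direction. With the replicate block 2 were called, *Cdkn1a* and *Rrm2*. Of the cell type markers, 9 of 10 macrophage, 7 of 8 fibroblast and 7 of 8 endothelial markers were higher in each sex. Injured tubule markers were higher in 8 of 9 cases in males and 9 of 9 in females, and podocyte markers in 6 of 6 and 5 of 6. Proximal tubule markers were lower in 4 of 9 cases in males and 8 of 9 in females, beside 6.81% and 11.6% of all genes called lower. The part of these cell types in the result was not tested.

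In control mice few members passed the test with NR. In males edgeR called 1 of 38 members tested, *Cdkn1a*, beside 3.07% of 14696 genes called higher. *Cdkn1a* rose in male controls by a log2FC of 1.22 ± 0.27 (edgeR adjusted p = 0.0351), and was higher in 4 of 4 NR-treated mice than in any vehicle-treated one. The adjusted p over the alternatives tried was 0.000563 to 0.146, and the call was lost without vehicle-treated control replicate 1, 2, 3 or 4, without NR-treated control replicate 1 or 3, with limma-voom (0.0571), with the replicate block (0.0665) and in 1 fit of all 32 mice. In the NR-treated male controls replicates 1 and 3 had the highest *Cdkn1a* values of the 4, the lowest *Col4a3* levels, 59.0 and 74.9 CPM, and the lowest proximal tubule sums, with 11245, 17517, 12310.3 and 16537 CPM in the 4 mice. Of the 20 genes of p53 and its other targets edgeR called 0 in male controls, with a median log2FC of 0.28. At an unadjusted p under 0.05 there were 6 of 20, beside 23.1% of all genes, and limma-voom called 0 and DESeq2 3, all higher. In the same male controls 4 of 9 injured tubule markers rose with NR, with sums of 1017, 963, 1094 and 937 CPM on vehicle and 2492, 1765, 2089 and 1112 CPM on NR. Also called higher were 7 of 8 endothelial, 4 of 8 fibroblast and 2 of 10 macrophage markers. Of the 9 proximal tubule markers 2 were called lower, beside 1.46% of all genes. The part of these cell types in the result was not tested.

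The 38 members tested in male controls had a median log2FC of 0.20, and *Melk* and *Cdkn2a* were below the filter. The sum of the mitosis members was 45.0, 42.5, 54.8 and 54.4 CPM in vehicle-treated and 38.1, 94.8, 34.2 and 38.5 CPM in NR-treated male controls. NR-treated replicate 2 lay above every vehicle-treated mouse and the other 3 NR-treated mice below every one of them. The macrophage markers summed to 111, 197, 106 and 90.9 CPM in the NR-treated male controls, also highest in replicate 2. Their part in the result was not tested. Without replicate 2 the median of the members was −0.22, with 28 of 38 members negative, so its sign turns with 1 mouse. It was 0.13 and 0.05 without vehicle-treated replicate 1 or 2, 0.05 with the replicate block and 0.01 with limma-voom. These alternatives for the medians were chosen after seeing the data. In female controls edgeR called 0 of 39 members, beside 6.18% of 14951 genes called in either direction. The median was −0.02, and 0.03 without vehicle-treated control replicate 3, −0.05, −0.11 and −0.05 without vehicle-treated control replicate 1, 2 or 4, and −0.14 without NR-treated control replicate 1. It came with 3 members at an unadjusted p under 0.05, namely *Rrm2* (0.43), *Bub1* (0.82) and *Ccnd1* (−0.42), beside 22.8% of all genes, and DESeq2 and limma-voom each called 0. The sum of the mitosis members in NR-treated female controls was 60.4, 53.6, 48.4 and 53.4 CPM, within the range of the vehicle-treated ones.

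Since the mitotic members rose together, their promoters were read from the RefSeq table of the GRCm38.p6 assembly, the build that the mm10 of the submitters' processing notes stands for. It lists 38 promoters of 34 of the 40 members, each from 250 bases before to 50 bases after the gene's start, and no promoter in the table used here was matched by name to *Aurkb*, *Ccna2*, *Ccnd1*, *Kif20a*, *Mcm4* or *Tpx2*. Both strands were searched for TTTGAA and its variant TTTAAA, the core of the cell cycle homology element, and for CCAAT, the core of the site of the factor NF-Y. E2F-type words were GGCGGGAA, GCGCGAAA and TTTGGCGC, of which the last 2 can overlap each other. TTTGAA or TTTAAA was in 18 of the 21 promoters of 20 mitosis members (85.7%), against 27.6% of all 32851 promoters, and CCAAT in 18 (85.7%) against 37.4%. Both together were in 17 (81%) of them against 10.7%. The promoters of *Mki67* and *Top2a* hold both. Of the 10 promoters of 9 MCM and DNA precursor members, 5 (50%) hold an E2F-type word, against 2.96% of all promoters and 1 of the 21 of mitosis members (4.76%). TTTGAA or TTTAAA was in 3 (30%) of these 10 and CCAAT in 9 (90%). A match is a description, not a site.

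To show these words in place, the 250 bases before the start of 4 mitotic promoters are given 5′ to 3′, with TTTGAA, its variant TTTAAA, and also CCAAT in capitals on either strand, so that TTCAAA (for TTTGAA) and ATTGG (for CCAAT) are the same words on the other strand. *Mki67*, *Top2a*, *Ccnb2* and *Cdk1* were picked after the matches were seen. The *Mki67* stretch is chr7:135716380-135716629 on the minus strand, that of *Top2a* chr11:99024190-99024439 on the minus strand, that of *Ccnb2* chr9:70421555-70421804 on the minus strand, and that of *Cdk1* chr10:69352913-69353162 on the minus strand.
Mki67: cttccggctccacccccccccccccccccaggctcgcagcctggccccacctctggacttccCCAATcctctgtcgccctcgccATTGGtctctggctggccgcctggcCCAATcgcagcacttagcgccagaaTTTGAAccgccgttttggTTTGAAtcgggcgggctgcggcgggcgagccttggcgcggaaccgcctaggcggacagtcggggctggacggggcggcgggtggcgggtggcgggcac
Top2a: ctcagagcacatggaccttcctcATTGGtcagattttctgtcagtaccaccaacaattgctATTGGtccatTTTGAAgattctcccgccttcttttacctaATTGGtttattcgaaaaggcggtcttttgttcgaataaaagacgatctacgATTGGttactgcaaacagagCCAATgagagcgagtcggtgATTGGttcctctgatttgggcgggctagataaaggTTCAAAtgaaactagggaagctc
Ccnb2: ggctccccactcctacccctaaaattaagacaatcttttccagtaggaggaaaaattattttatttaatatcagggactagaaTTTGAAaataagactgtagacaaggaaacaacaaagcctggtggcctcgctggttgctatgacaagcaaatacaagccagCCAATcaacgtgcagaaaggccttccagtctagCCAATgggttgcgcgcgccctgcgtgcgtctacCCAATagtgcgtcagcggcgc
Cdk1: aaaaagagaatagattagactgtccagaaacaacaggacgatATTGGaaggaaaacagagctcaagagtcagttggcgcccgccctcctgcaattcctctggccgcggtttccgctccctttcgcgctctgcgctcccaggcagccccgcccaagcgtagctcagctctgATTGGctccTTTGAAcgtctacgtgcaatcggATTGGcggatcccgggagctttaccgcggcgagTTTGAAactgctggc

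For the helicase genes *Mcm5* and *Mcm6*, shown because both hold E2F-type words, the capitals mark the 3 E2F-type words and CCAAT on either strand. The *Mcm5* stretch is chr8:75109259-75109508 on the plus strand and that of *Mcm6* is chr1:128359706-128359955 on the minus strand, each the 250 bases before the start. In both, the words GCGCGAAA and TTTGGCGC overlap to form 1 longer run of capitals, and *Mcm6* holds TTTGGCGC at 1 further place.
Mcm5: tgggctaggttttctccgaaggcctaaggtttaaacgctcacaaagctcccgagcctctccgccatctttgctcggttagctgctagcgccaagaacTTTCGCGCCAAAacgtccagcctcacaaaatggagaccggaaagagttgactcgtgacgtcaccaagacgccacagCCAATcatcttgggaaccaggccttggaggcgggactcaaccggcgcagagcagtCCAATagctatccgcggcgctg
Mcm6: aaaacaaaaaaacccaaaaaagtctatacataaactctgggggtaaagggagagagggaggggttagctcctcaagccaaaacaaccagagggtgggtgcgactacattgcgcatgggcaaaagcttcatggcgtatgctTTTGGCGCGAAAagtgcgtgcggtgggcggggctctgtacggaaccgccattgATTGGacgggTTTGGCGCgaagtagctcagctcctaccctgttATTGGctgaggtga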

How the data were processed

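Kidney cortex RNA of 32 mice was sequenced, 1 library per mouse. The deposited table of gene-level counts, made by the authors with BioJupies from reads aligned to mm10, was analysed as it stands. The second deposited table holds log10(CPM + 1) that the authors made from these counts, and it was only compared with values computed from them, with a largest difference of 8.9e-16 over 32544 genes. The aligner, annotation and counting strand are not given in the sources used here.

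Each comparison of 4 against 4 mice was fitted alone in edgeR 4.0.16 (R 4.3.3): filterByExpr with a minimum count of 10, TMM factors, quasi-likelihood F test, Benjamini-Hochberg adjustment over all genes tested, and a threshold of 0.05. The SE is the log2FC divided by the square root of F. The interaction was fitted in the 16 vehicle-treated mice. DESeq2 1.42.0, limma 3.58.1 (voom), RLE size factors, no low-count filter, 1 fit of all 32 mice, a replicate block and leaving out each mouse were the alternatives. The pipelines were tested on simulated data.

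The members and lists were chosen with earlier results of these data known. Values per mouse are given for *Mki67*, *Top2a*, *Ccnd1*, *Cdkn1a* and the member with the highest mean level of each role, other members with their fold changes, and of each other list of cell cycle genes the 3 with the highest fold changes called in both sexes. Cell type markers are given as counts of calls, summed levels and most abundant gene. The list of E2F, RB and DREAM regulators is also given with its summed level and most abundant gene.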

Additional observations from a re-analysis of the deposited data

Results flagged for a closer look

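Of 88 groups of 4 mice examined, over the genes with values per mouse, 6 held a mouse far from the other 3, and chance flags about 1 in 20 groups. In NR-treated male controls, replicate 2 had 12.7 CPM of *Mki67* (nearest mouse 3.50), 10.5 of *Top2a* (nearest 6.30), 5.91 of *Ccnb2* (nearest 1.72) and 9.31 of *Cdc20* (nearest 3.27), so that 4 of the 6 concern 1 mouse. In NR-treated male Alport mice, replicate 3 had 113 CPM of *Cdkn1a* (nearest 24.2). In vehicle-treated female Alport mice, replicate 2 had 156 CPM of *Ccnd1*, where the nearest of the others had 142.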

How the results depend on the processing

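Of 714 fold changes under the alternatives, from 51 results of single members, 662 kept their direction and their side of the threshold, 28 no longer passed it, 9 newly passed it, and 15 changed sign. Among the called members 0 changed sign.

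The counts of members called in Alport against control mice on vehicle were 36 in males and 37 in females, all higher. They ranged from 36 to 37 and from 36 to 38 when 1 mouse was left out. The female count of 38 includes *Tyms*, which was called lower. For NR in Alport mice the male count of 0 ranged from 0 to 14, the female count of 0 was 2 with DESeq2, and the interaction stayed at 0. For NR in male controls the count of 1 was 0 with limma-voom, 0 in 1 fit of all 32 mice and 0 with the replicate block, and 0 to 1 with 1 mouse left out. For NR-treated Alport against vehicle-treated control mice, the male count of 6 was 15 in 1 fit of all 32 mice, 4 with limma-voom, 3 with the replicate block and 1 to 7 with 1 mouse left out. The female count of 12 was 23 with DESeq2, 7 with limma-voom, 2 with the replicate block and 5 to 28 with 1 mouse left out. For female against male controls the count of 7 was 1 in 1 fit of all 32 mice and 4 to 7 with 1 mouse left out.

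Values that changed sign were near 0 or spread widely. *Ccnd1* in male Alport against control mice (−0.01) was 0.0287 with limma-voom, 0.0227 with the replicate block and −0.20 to 0.11 with 1 mouse left out. For NR in Alport mice with 1 mouse left out, male *Ccnd1* (0.02) was −0.0469 to 0.091, male *Cdkn1a* (1.16) −0.0946 to 1.48, female *Cdkn1a* (−0.16) −0.49 to 0.13 and female *Pcna* (0.01) −0.0646 to 0.0615. The cause was not tested. Replicate numbers were taken not to pair mice: of 24 correlations between mice of the same number, 5 were above 0.1, with a range of −0.167 to 0.262. Leaving out mice for the medians of the members and for *Cdkn2a*, and other tools for the medians, were added after seeing the data, and their values are given where 1 mouse turns a sign or moves a value by over 1.5 times. Genes with few counts, such as *Cdkn2a*, are limited by depth.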
